A study of Mus musculus with 16 samples.

Results

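The genes described here are 10 transcription factor genes that act in fat cell formation: the peroxisome proliferator-activated receptors Pparg, Ppara and Ppard, the retinoid X receptors Rxra and Rxrb, the liver X receptor Nr1h3, and the CCAAT/enhancer binding proteins Cebpa, Cebpb, Cebpd and Cebpg. They were taken by gene name from the 41325 genes of the count tables, and all 10 were found. The libraries came from immortalized preadipocytes of the mouse strain C57Bl6/J, wild type in genotype, which are fat cell precursors kept in culture. The 4 groups, of 4 libraries each, were untreated cells (agent none) at day 0, cells pre-treated with the cytokine interleukin-13 (IL-13) over 16 h and taken at day 0, and the same treatment arms at day 6 of differentiation. The 2 arms shared line, strain, genotype and library kit, and each library was made from 2 ug of total RNA with a stranded kit that selects polyadenylated RNA. The sources used here do not say how the line was immortalized, whether it is a single clone, or whether the replicates of a group were separate cultures. The p-values therefore rest on the spread among libraries alone, and that spread could be technical.

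PPARs and LXRs are nuclear receptors that bind lipid ligands and occupy DNA as heterodimers with an RXR. PPARγ, the product of Pparg, is the receptor without which fat cells do not form, and it drives genes of lipid storage. The C/EBPs are leucine zipper proteins: in cultured preadipocytes C/EBPβ and C/EBPδ act early and induce Pparg and Cebpa, after which PPARγ and C/EBPα sustain each other's expression. IL-13 is a type 2 cytokine that signals through the transcription factor STAT6.

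Library totals lay between 15253031 and 18112087 counts. Summed adipocyte markers at day 0 lay between 421 and 461 CPM (counts scaled to library size) in untreated cells. In IL-13 cells they lay between 357 and 379 CPM, with no overlap and with Lep at 0 in both groups. Adipoq, Plin1, Cidec, Lep and Slc2a4 were under 1 CPM in every day 0 library, so the sums were almost all Lpl and Fabp4. Lpl had a mean of 330 CPM in untreated and 265 CPM in IL-13 cells, and Fabp4 109 and 103 CPM. Among the scarce markers, mean CPM was higher with IL-13 for Plin1, Adipoq and Cidec and lower for Slc2a4. The part of the adipocyte markers in the day 0 differences between the arms was not tested. At day 6 the sums lay between 23294 and 26154 CPM. Summed preadipocyte markers lay between 1053 and 1148 CPM at day 0 and between 369 and 479.7 CPM at day 6. The smooth muscle markers, which include Acta2, summed to between 3275 and 4391 CPM at day 0 and to at most 57.2 CPM at day 6. Of these 4 markers 3 fell by day 6, and Des rose (log2 fold change 2.07, SE 0.16, in untreated and 2.63, SE 0.16, in IL-13 cells). Macrophage markers summed to at most 8.60 CPM with Adgre1 at 0 throughout, endothelial markers to at most 2.15 CPM with Tie1 at 0 throughout, and epithelial markers to at most 2.81 CPM. The libraries also differed in an index of 20 nuclear and splicing-related RNAs (mean log2 CPM), which was 6.50, 6.23, 5.97 and 6.40 in untreated and 5.87, 5.85, 5.74 and 5.76 in IL-13 cells at day 0. At day 6 it was 6.84, 6.75, 6.41 and 6.55 in untreated and 6.24, 5.92, 5.77 and 6.14 in IL-13 cells. Every IL-13 library thus lay below every untreated library of its day. With the index as a covariate, its share of a difference therefore cannot be told apart from that of IL-13. The nuclear-rich libraries named below are untreated replicates 1 and 4 at day 0 and 1 and 2 at day 6, which had the most of these RNAs. A fit without them has fewer untreated libraries.

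The stretches before the transcription starts of Pparg, Cebpa and Cebpb are shown because these were the 3 members of the 8 tested whose libraries did not overlap between the arms at day 0, as was so for 40.4% of all genes tested. Each is the 250 bases upstream of a RefSeq start on the plus strand of GRCm38.p6, and none of these windows overlapped an annotated exon. The Pparg window, chr6:115421816-115422065, precedes the start of transcript Pparg-201, the fat-cell form; the Cebpa window is chr7:35119043-35119292 and the Cebpb window chr2:167688665-167688914. Capitals mark matches to the C/EBP-type motif TTGCNNAA, to CCAAT, or to the nuclear receptor element AGGTCA, on either strand.
Pparg: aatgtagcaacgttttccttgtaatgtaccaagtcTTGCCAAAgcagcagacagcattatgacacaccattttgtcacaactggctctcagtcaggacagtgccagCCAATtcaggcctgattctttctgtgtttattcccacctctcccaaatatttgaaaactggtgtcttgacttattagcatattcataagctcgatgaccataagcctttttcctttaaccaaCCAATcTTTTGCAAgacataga
Cebpa: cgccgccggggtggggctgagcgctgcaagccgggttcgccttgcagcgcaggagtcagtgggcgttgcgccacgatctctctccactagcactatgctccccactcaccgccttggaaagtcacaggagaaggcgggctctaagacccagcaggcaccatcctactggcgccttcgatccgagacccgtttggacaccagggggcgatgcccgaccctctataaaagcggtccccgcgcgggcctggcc
Cebpb: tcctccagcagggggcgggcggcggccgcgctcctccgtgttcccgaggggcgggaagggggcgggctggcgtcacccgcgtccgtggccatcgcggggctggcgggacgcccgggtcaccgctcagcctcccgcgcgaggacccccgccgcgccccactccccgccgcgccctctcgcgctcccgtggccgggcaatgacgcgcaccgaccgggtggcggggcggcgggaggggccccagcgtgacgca
The Pparg window held 2 C/EBP-type matches, 1 from -215 to -208 and 1 from -16 to -9, counted from the start, with CCAAT at -144 to -140 and at -22 to -18. Of 32851 windows of the same length, 9.56% held the C/EBP-type motif, 33.8% CCAAT and 14.0% AGGTCA. The windows of Cebpa and Cebpb held none of these. The STAT6-type motif (TTC and GAA with NNNN between them), which 5.85% of windows held, was in none of the 3 windows shown, that of Pparg included. The direct repeats of AGGTCA spaced by N or NNNN and the cyclic AMP element TGACGTCA were also searched on both strands, and none was in these 3 windows. These were held by 0.0335%, 0.0152% and 1.55% of all windows. A match describes letters only and is not a measured binding site. The promoter of Cebpd was not in the sequence table. Pparg also had windows at chr6:115360894-115361143 and chr6:115362099-115362348, which are not shown and which overlapped annotated exons. They held no C/EBP-type and no STAT6-type match. The former held AGGTCA at -28 to -23, and the latter AGGTCA at -9 to -4 and CCAAT at -83 to -79. The counts do not separate the transcripts of a gene.

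In the first comparison, day 6 was set against day 0 within each arm, which follows the factors through differentiation. In untreated cells 9 of the 10 members were higher at day 6 (edgeR's quasi-likelihood test with Benjamini-Hochberg adjustment over 13157 genes), beside 80.5% of all genes called, 41.5% higher and 39% lower. In IL-13 cells the same number was higher, beside 80.8% called, 40.6% higher and 40.3% lower. Rxra was the exception in both arms. The day 0 and day 6 libraries overlapped for Rxra in both arms, and in IL-13 cells also for Ppard, Rxrb and Cebpd. The DESeq2 test called as many members in each arm, beside 10530 of the 13157 genes in untreated and 10580 in IL-13 cells. In bulk RNA, fewer cells of a type and less RNA per cell cannot be told apart, so a change can come from either.

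**Figure D1:**
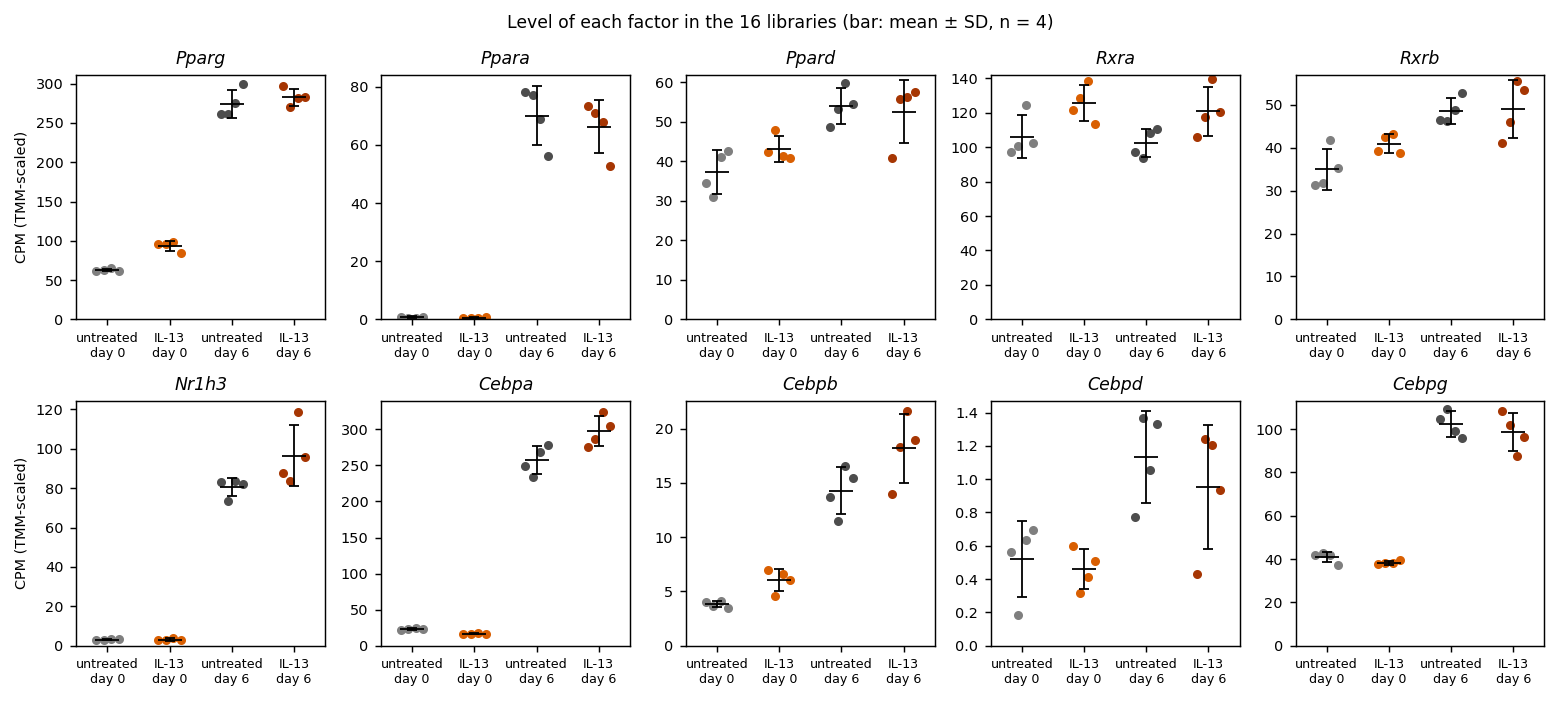
Level of each of the 10 factors in every library, in CPM (scaled by TMM) on linear axes that start at 0; points are libraries and bars give mean ± SD (n = 4 per group). Ppara, Nr1h3, Cebpa and Pparg are well above their day 0 levels at day 6, and Rxra lies between 93.6 and 139.8 CPM in all 16 libraries.

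Among the PPARs, Ppara rose most. It encodes the receptor that drives fatty acid oxidation in liver and brown fat. Its untreated libraries had 0.973, 0.369, 0.460 and 0.963 CPM at day 0 (6 to 19 counts) and 78.0, 77.1, 68.8 and 56.2 CPM at day 6. The IL-13 libraries had 0.479, 0.506, 0.475 and 0.830 CPM at day 0 and 73.4, 70.8, 68.0 and 52.9 CPM at day 6. The days were far apart in both arms: the log2 fold change was 6.61 (SE 0.20) in untreated and 6.84 (SE 0.21) in IL-13 cells. Pparg had 62.1, 62.4, 65.4 and 61.2 CPM in untreated cells at day 0 and 261, 261, 276 and 299.7 CPM at day 6. No day 6 library came near a day 0 library, and Pparg rose by 2.13 (SE 0.06) on the log2 scale. Ppard, the most widely expressed PPAR, rose from a mean of 37.3 ± 5.5 CPM to 54.1 ± 4.6 CPM (SD, n = 4 each), a log2 fold change of 0.53 (SE 0.11). In IL-13 cells its change was 0.29 (SE 0.11, adjusted p 0.0211), and this call was lost without IL-13 day 6 replicate 2, 3 or 4 (log2 fold changes 0.28, 0.27 and 0.26).

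The RXRs are the shared partners. Rxra was not called in either arm: it had 97.0, 101, 124 and 103 CPM in untreated cells at day 0 and 97.4, 93.6, 108 and 110.3 CPM at day 6, so the groups overlapped; the log2 change was -0.05 (95% interval -0.24 to 0.14). In IL-13 cells the change of Rxra was also -0.05 (-0.24 to 0.13). Rxrb rose from 35.0 ± 4.8 to 48.6 ± 3.1 CPM (SD, n = 4 each), a log2 fold change of 0.47 (SE 0.09), and in IL-13 cells by 0.26 (SE 0.09). Without IL-13 day 6 replicate 3 the latter was 0.22 and lost its call. Rxrg, the third RXR and no member by the rule, rose from 0.248 ± 0.124 to 31.1 ± 2.1 CPM in untreated cells (log2 fold change 6.91, SE 0.19). It had 2 to 8 counts per library at day 0.

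Nr1h3 encodes LXRα, an oxysterol receptor that controls cholesterol efflux and lipogenic genes. Its untreated libraries held 2.92, 2.83, 3.34 and 3.43 CPM at day 0 and 83.1, 73.7, 83.8 and 81.9 CPM at day 6. The IL-13 libraries held 2.87, 2.91, 3.98 and 2.68 CPM at day 0 and 87.7, 83.6, 119 and 95.9 CPM at day 6. All day 6 libraries thus lay above all day 0 libraries, with a log2 fold change of 4.68 (SE 0.12) in untreated and 4.95 (SE 0.13) in IL-13 cells. The other LXR, Nr1h2, was not called in untreated cells (0.14, SE 0.15, adjusted p 0.382).

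Among the C/EBPs the largest change was in Cebpa, whose product maintains the fat cell state. Its untreated libraries had 21.9, 23.3, 24.7 and 23.4 CPM at day 0 and 249, 234, 268 and 279 CPM at day 6. Its log2 fold change was 3.47 (SE 0.07) in untreated and 4.16 (SE 0.07) in IL-13 cells. Cebpb had 4.04, 3.69, 4.09 and 3.48 CPM at day 0 and 13.7, 11.5, 16.6 and 15.4 CPM at day 6, a log2 fold change of 1.90 (SE 0.15), and 1.58 (SE 0.14) in IL-13 cells. Cebpg, which encodes a short family member that dimerizes with other bZIP proteins, had 41.9, 42.7, 41.7 and 37.2 CPM in untreated cells at day 0 and 105, 109, 99.3 and 95.7 CPM at day 6. It rose by 1.32 (SE 0.07) in untreated and 1.37 (SE 0.07) in IL-13 cells, with no overlap between the days. Cebpd was scarce throughout, at 3 to 23 counts per library, and rose by 1.10 (SE 0.35, adjusted p 0.0067) in untreated and 1.03 (SE 0.37, adjusted p 0.0164) in IL-13 cells. The latter call was lost without IL-13 day 6 replicate 2 (0.89).

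**Figure D2:**
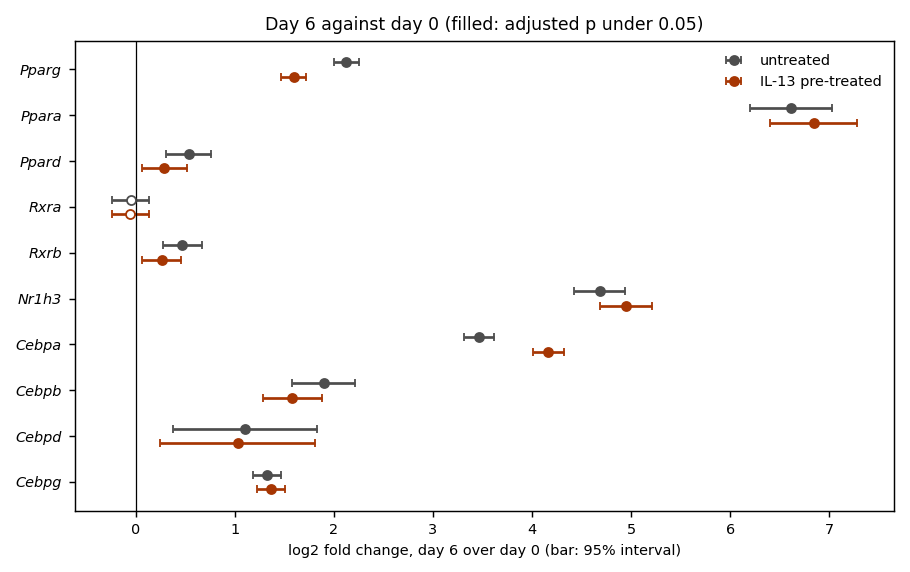
Log2 fold change from day 0 to day 6 (x axis) of each factor (y axis) in untreated and IL-13 pre-treated cells; points are fitted values, bars 95% intervals, and filled points have an adjusted p under 0.05. Pparg (2.13 and 1.59) and Cebpa (3.47 and 4.16) are the factors whose intervals are apart between the arms.

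In GRCm38 as the tables give it, Pparg lies on chromosome 6 from 115360951 to 115490399, Ppara on 15 from 85734983 to 85802819 and Ppard on 17 from 28232700 to 28301474. Rxra lies on chromosome 2 from 27676440 to 27762957, Rxrb on 17 from 34031812 to 34038393 and Nr1h3 on 2 from 91184061 to 91202834. Cebpa (35119293 to 35121928) and Cebpg (35046422 to 35056573) are neighbours on chromosome 7. The values of Cebpb and Cebpd carry a limit from their position. Cebpb is a single-exon gene at GRCm38 chromosome 2, 167688915 to 167690418, and 20.7% of its exon bases lie within an exon of Tmem189 on the other strand. Cebpd, on chromosome 16 from 15887286 to 15891031, shares 15.003% of its exon bases with Spidr in the same way. The sources used here do not say whether counting used the strand, so reads of these pairs may be mixed. At day 0, Tmem189 was higher with IL-13 by 0.26 (SE 0.07) and Spidr lower, at -0.29 (SE 0.07). From day 0 to day 6 Tmem189 rose by 0.74 (SE 0.07) in untreated and 0.53 (SE 0.07) in IL-13 cells. Spidr rose by 0.57 (SE 0.09) and 0.72 (SE 0.09), the same direction as Cebpd. Spidr had 343 to 748 counts per library, against 3 to 23 for Cebpd. How many reads of Cebpb and Cebpd came from these neighbours was not tested. For Cebpa, Nr1h3 and Cebpg the shared exon bases were 1.94%, 1.35% and 1.30% or fewer, in other annotated genes.

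Levels were compared between genes only per length, in the deposited RPKM (reads scaled to transcript length and library size). In untreated cells at day 0 the order ran Pparg 21.6 ± 0.3, Rxra 19.7 ± 1.9, Rxrb 9.62 ± 1.17, Cebpa 8.99 ± 0.36, Cebpg 7.38 ± 0.33, Ppard 5.05 ± 0.79, Cebpb 2.58 ± 0.16, Nr1h3 1.26 ± 0.13, Ppara 0.185 ± 0.090 and Cebpd 0.141 ± 0.064 RPKM (SD, n = 4). Of neighbours in that order, Pparg and Rxra, Rxrb and Cebpa, and Ppara and Cebpd overlapped in their libraries. At day 6 untreated cells had Cebpa at 92.2 ± 6.9 and Pparg at 87.6 ± 5.6 RPKM, which overlapped, followed by Nr1h3 at 30.3 ± 1.7 RPKM. Rxra at 17.7, Ppara at 17.2 and Cebpg at 17.2 RPKM overlapped with each other, Rxrb stood at 12.4, Cebpb at 8.97 and Ppard at 6.79 (overlapping), and Cebpd at 0.285 RPKM. In IL-13 cells at day 6 Cebpa, at 103 ± 6 RPKM, lay above Pparg, at 87.0 ± 3.6 RPKM, with no overlap.

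**Figure D3:**
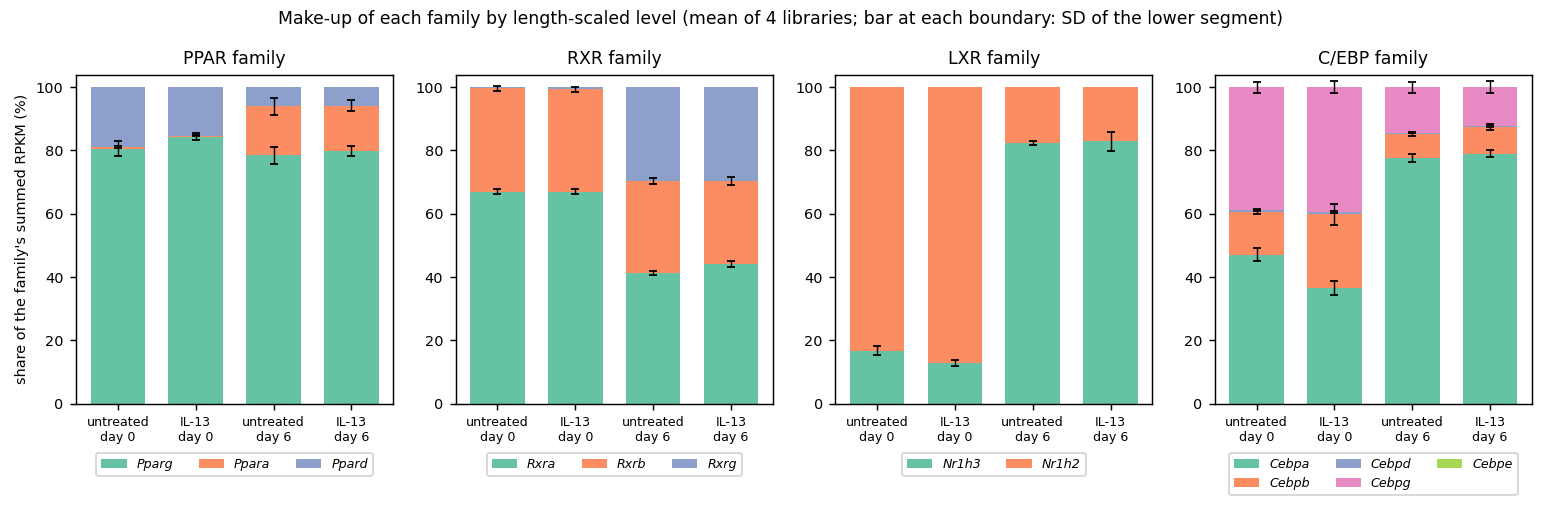
Share of each family's summed RPKM (y axis, percent, from 0) held by each gene in the 4 groups (x axis); bars are means of 4 libraries and error bars the SD of the segment below. Nr1h3 goes from 16.7% to 82.3% of the LXR family in untreated cells, and Rxrg from 0.38% to 29.8% of the RXR family. The C/EBP sum is that of Cebpa, Cebpb, Cebpd, Cebpg and Cebpe, without Cebpz and Ddit3.

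As shares of their families, Pparg held 80.6 ± 2.4% of PPAR RPKM in untreated cells at day 0 and 78.4 ± 2.7% at day 6, while Ppara went from 0.684% to 15.5%. Nr1h3 went from 16.7 ± 1.5% of LXR RPKM to 82.3 ± 0.6%. Cebpa went from 47.0 ± 2.0% of C/EBP RPKM to 77.7 ± 1.2%. The C/EBP total was that of Cebpa, Cebpb, Cebpd, Cebpg and Cebpe. It left out Cebpz, at a mean of 12.4 RPKM in untreated cells at day 0, and Ddit3, which was not found by name. At day 0 Cebpa held 36.5 ± 2.1% with IL-13 and Cebpb 23.3 ± 3.2%, against 13.5 ± 0.7% for Cebpb in untreated cells. These are shares of RNA, not of protein.

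The second comparison asked how IL-13 altered the factors at day 0. Of the 8 members that passed the expression filter, 5 were called, 4 higher and 1 lower; of all 12274 genes, 47.9% were called, 23.7% higher and 24.2% lower. The count is thus near the share of all genes. With libraries scaled by total counts, the median of all genes moved to -0.13, 1682 genes were higher and 4523 lower, against 2912 and 2969 with TMM, and Rxra (0.11) and Rxrb (0.09) were no longer called. Ppara and Cebpd had too few counts for the filter.

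Pparg was higher after IL-13. Its IL-13 libraries had 96.0, 95.4, 98.3 and 84.4 CPM, against 61.2 to 65.4 CPM in untreated cells, with no overlap. The fold was 1.47 (log2 0.56, SE 0.05, edgeR adjusted p 9.66e-07), and leaving out any library gave 0.54 to 0.60. Without the 2 untreated libraries richest in nuclear RNAs it was 0.55 (adjusted p 8.25e-05). With the index of nuclear RNAs fitted as a covariate it was 0.53 (adjusted p 0.00135).

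Cebpa was lower. The IL-13 libraries had 15.8, 16.8, 17.7 and 16.1 CPM, all under the 21.9 to 24.7 CPM of the untreated libraries. The untreated level was 1.42-fold the IL-13 level (log2 change -0.50, SE 0.07, adjusted p 4.93e-05 by edgeR). With the index as a covariate the change was -0.63 (adjusted p 0.00237). Pparg and Cebpa, which sustain each other's expression in fat cells, therefore differed from untreated cells in opposite directions at this time.

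Cebpb, the early inducer, was higher. Its IL-13 libraries had 6.95, 4.62, 6.65 and 6.07 CPM, against 3.48 to 4.09 CPM in untreated cells. The fold was 1.57 (log2 0.65, SE 0.14, edgeR adjusted p 0.00158). With the index as a covariate it was 0.58 with an adjusted p of 0.262. Cebpg missed the threshold (log2 -0.11, SE 0.06, adjusted p 0.133), but passed it, at -0.23 with an adjusted p of 0.00624, when libraries were scaled by total counts.

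The RXRs were called, with small changes. Rxra had 122, 128, 138 and 114 CPM with IL-13 (log2 0.23, SE 0.08, edgeR adjusted p 0.0229), and its range overlapped that of untreated cells, 97.0 to 124 CPM. Rxrb had 39.2, 42.5, 43.3 and 38.8 CPM with IL-13 (log2 0.21, SE 0.08, adjusted p 0.0440), and overlapped with 31.3 to 41.7 CPM. Both calls were lost without the 2 untreated libraries richest in nuclear RNAs (Rxra 0.16, Rxrb 0.15), and with the index as a covariate the values were -0.04 and -0.07. Rxra also lost its call without untreated day 0 replicate 1 (0.19), 2 (0.20) or 4 (0.22), or IL-13 day 0 replicate 2 (0.22) or 3 (0.18). Rxrb lost it without untreated replicate 1 (0.17), 2 (0.17) or 4 (0.22), or IL-13 replicate 1 (0.23), 2 (0.20) or 3 (0.19). Ppard (0.19, adjusted p 0.110) and Nr1h3 (-0.02, adjusted p 0.922) did not pass the test, and Ppard passed without untreated replicate 4 (0.27). For the members under the filter, an exact two-sided permutation test of CPM gave p 0.571 for Ppara and 0.686 for Cebpd (n = 4 each; the smallest p it allows is 0.0286).

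**Figure D4:**
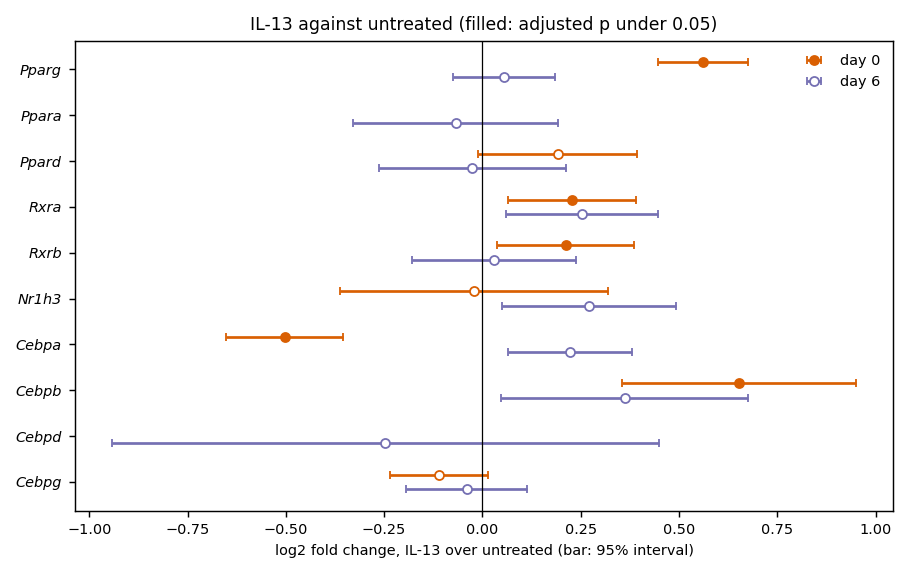
Log2 fold change of IL-13 over untreated cells (x axis) for each factor (y axis) at day 0 and day 6; points are fitted values, bars 95% intervals, and filled points have an adjusted p under 0.05. At day 0 Pparg is at 0.56, Cebpb at 0.65 and Cebpa at -0.50; no point is filled at day 6, and Ppara and Cebpd have no day 0 point.

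The third comparison set the arms against each other at day 6, and by edgeR and by DESeq2 0 of the 10 members were called. Of 12352 genes, edgeR called 6.55% (2.21% higher, 4.34% lower), and DESeq2 called 1436 (583 higher, 853 lower). With all 16 libraries in the fit, edgeR called Cebpa. Pparg was at 296, 269.7, 281 and 282 CPM with IL-13, and its log2 change was 0.06 (95% interval -0.07 to 0.18). Cebpa had 276, 287, 324 and 304 CPM, overlapping the 234 to 279 CPM of untreated cells (0.22, SE 0.07, edgeR adjusted p 0.0804). Cebpb had 14.0, 18.3, 21.7 and 18.9 CPM, also overlapping the untreated libraries, as did each other member; 15.5% of all genes tested did not overlap. Rxra (0.25, adjusted p 0.0981), Nr1h3 (0.27, adjusted p 0.115) and Cebpb (0.36, adjusted p 0.133) had positive values that missed the threshold. The others lay between -0.25 (Cebpd, SE 0.32) and 0.03 (Rxrb, SE 0.10). Unadjusted p-values lay under 0.05 for Cebpa, Rxra, Nr1h3 and Cebpb, and without IL-13 day 6 replicate 1 Rxra (0.30), Cebpa (0.24) and Cebpb (0.46) were called. With the index of nuclear RNAs in the model these 4 members were at -0.03, -0.14, -0.03 and -0.26, none of them called.

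Whether the IL-13 effect differed between the days was tested in a single model of all 16 libraries. It did for 2 of the 10 members, beside 8.06% of 13157 genes. For Pparg the difference, day 6 minus day 0, was -0.53 (SE 0.08, edgeR adjusted p 0.000151). For Cebpa it was 0.70 (SE 0.10, adjusted p 4.25e-05). Without the 4 untreated libraries richest in nuclear RNAs these were -0.55 and 0.68, and with the index as a covariate -0.54 and 0.64. Neither call was lost when a library was left out. The other 8 members ranged from -0.32 (Cebpb, SE 0.21) to 0.26 (Nr1h3, SE 0.20) with adjusted p-values from 0.404 up.

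Genes that these factors are known to control were counted from lists chosen with earlier results of these data known, so their directions are a description. The counts below stand beside 41.5% of all genes called higher and 39% lower by day 6 in untreated cells, 23.7% higher and 24.2% lower with IL-13 at day 0, and 2.21% higher and 4.34% lower with IL-13 at day 6. Without the nuclear-rich libraries, or with the index as a covariate, none of the day 6 calls with IL-13 given below was kept. The former has fewer untreated libraries and the index separates the arms, so a lost call does not tell why it was lost. Both settings were applied to the lists after the data were seen. Of 17 PPARγ targets in fat cells, all 17 rose by day 6 in untreated cells (median 7.43, against 0.04 over all genes; 3 of the 17 had a day 0 group with no count, and the median was the same with those at a floor of 3 counts). Among them were Fabp4, the fatty acid carrier (7.09, SE 0.09), and Acsl1, which activates fatty acids (6.76, SE 0.08). With IL-13 at day 0, 10 of these were tested: 4 rose, 2 fell and the median was 0.02, against -0.01 over all genes. The lipases Pnpla2 (0.96) and Lipe (0.70), Gpd1 (1.12) and Plin4 (0.14) were the 4 that rose, and Lpl (-0.33) was among the 2 that fell. Gpd1 was scarce at day 0, with means of 0.456 CPM in untreated and 1.02 CPM in IL-13 cells. Here and in the next 5 paragraphs, genes given without SE were named after their values were seen. At day 6, 2 of 17 were higher with IL-13: Adipoq, which encodes the hormone adiponectin (0.30, SE 0.07, edgeR adjusted p 0.0345), and Agpat2 (0.39). Without the nuclear-rich libraries these were 0.24 (adjusted p 0.488) and 0.27 (adjusted p 0.479), and at day 0 there were 2 rises and 2 falls; with the covariate there was 1 of each at day 0.

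Of 18 targets of PPARα and PPARδ, 16 rose and 2 fell by day 6 in untreated cells (median 3.41), the 2 being Vnn1 (-3.21) and Cpt1a (-0.35). Acadm, a mitochondrial acyl-CoA dehydrogenase, rose by 3.81 (SE 0.06). With IL-13 at day 0, 6 of 15 tested rose and 4 fell; Angptl4, a lipoprotein lipase inhibitor, rose by 0.65 (SE 0.08) and Plin2, a lipid droplet coat protein, by 0.26 (SE 0.05). The 4 that fell were Pdk4 (-0.87), Acot2 (-0.47), Cpt1b (-1.25) and Vnn1 (-0.34). Cpt1b was scarce at day 0, with means of 1.81 CPM in untreated and 0.774 CPM in IL-13 cells. At day 6, 3 of 18 rose with IL-13, Plin2 (0.24, SE 0.06), Acaa2 (0.27) and Cpt1a (0.22). Without the nuclear-rich libraries these were 0.15, 0.20 and 0.25, with edgeR adjusted p-values from 0.395 to 0.554. At day 0 that gave 5 rises and 3 falls: Acot2 (-0.38) and Cpt1b (-0.63) were not called, and Acot1 (-0.53) was. The covariate left 2 rises (Plin2 at 0.15 was not called) and 1 fall.

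Of 10 LXR targets tested, 9 rose by day 6 in untreated cells (median 2.77), all but Mylip (-0.12). Scd1, the fatty acid desaturase, rose by 5.29 (SE 0.08) and Abcg1, a cholesterol exporter, by 3.67 (SE 0.13). With IL-13 at day 0, when Nr1h3 was at -0.02, 3 of 8 tested rose and 2 fell. Abcg1 rose by 0.88 (SE 0.18) and Lpcat3, a phospholipid acyltransferase, by 0.44 (SE 0.06), and Pltp by 0.26. Abca1 (-1.24), which like Abcg1 exports cholesterol, and Mylip (-0.88) fell. The receptor gene Nr1h2 rose by 0.42 (SE 0.10). At day 6, Lpcat3 rose with IL-13 (0.25, SE 0.06) and Mlxipl fell (-0.88). Without the nuclear-rich libraries they were at 0.18 (edgeR adjusted p 0.535) and -0.70 (adjusted p 0.119). At day 0 that gave 4 rises and the same 2 falls. With the covariate 1 rise (Abcg1) and the 2 falls were called, Lpcat3 was at 0.30 (adjusted p 0.0671) and Nr1h2 at 0.05 (adjusted p 0.909).

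Of the acute-phase and inflammatory genes that C/EBPs are known to drive, 7 were tested over the days and 6 rose in untreated cells, Hp, which encodes haptoglobin, by 7.55 (SE 0.14); Ptgs2, which encodes an inducible cyclooxygenase, fell (-2.77). At day 0, 3 could be tested with IL-13. C3, the central complement component, rose by 3.15 (SE 0.21), Hp was at -0.27 (SE 0.24, not called), and Ptgs2 fell (-0.70). At day 6, Hp was higher with IL-13 (0.45, SE 0.11, edgeR adjusted p 0.0353); without the nuclear-rich libraries it was at 0.33 (adjusted p 0.475) and with the covariate at 0.02. At day 0 the covariate left C3 called (3.76) and Ptgs2 not (-0.72, adjusted p 0.0973).

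Among 17 coactivators and corepressors of nuclear receptors, 9 rose and 4 fell by day 6 in untreated cells (median 0.24), with Ncoa3 (-0.997), Ncoa6 (-0.34) and Ep300 (-0.25) among the 4 that fell. Ppargc1b, a coactivator of mitochondrial genes, rose by 5.80 (SE 0.15), and Prdm16, a coregulator of brown fat identity, by 3.87 (SE 0.11). With IL-13 at day 0, 2 of 16 tested rose and 8 fell (median -0.17). The 2 that rose were Ppargc1b, by 1.03 (SE 0.25), and Ncoa1, a steroid receptor coactivator, by 0.44 (SE 0.06). The 8 that fell are not named here, so the named genes go against the direction of most calls in this list. At day 6 edgeR called 0 of 17, with 3 at an unadjusted p under 0.05. At day 0, 5 of the 8 falls were called without the nuclear-rich libraries and 0 with the index as a covariate, where the median was -0.01. Ncoa1 was called in both (0.50 and 0.59), and Ppargc1b was at 1.56 (edgeR adjusted p 0.0704) with the covariate.

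Among 22 regulators upstream of the members, 11 rose and 9 fell by day 6 in untreated cells. Foxo1 rose by 1.98 (SE 0.07), and Gata2 and Dlk1, both known to hold preadipocytes back from differentiation, fell by 3.89 (SE 0.14) and 4.12 (SE 0.16). With IL-13 at day 0, 2 of 21 rose, Klf4 (1.82) and Nr2f2 (0.36), and 10 fell (median -0.18). The 10 that fell are not named here, so the 2 named genes go against the direction of most calls in this list. Without the nuclear-rich libraries 3 rose and 6 fell, and with the covariate 2 rose, again Klf4 (1.76) and Nr2f2 (0.46), and 2 fell. At day 6 edgeR called 0 of 20, with 4 at an unadjusted p under 0.05; Dlk1 was at -1.03 (SE 0.29, edgeR adjusted p 0.0510).

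Genes whose log2 CPM followed Pparg most closely over the 16 libraries, among 9003 genes, were Pcx, Ptges and Mthfd2 (Pearson r 0.997 each) and Nf2 and Rgcc (0.996 each). For Cebpb they were Trib3 (0.989), Tomm40l (0.986), Tmem14c (0.985), Agt (0.984) and Tubg1 (0.984). Libraries of a group share a treatment and a day, so these values describe the same 4 groups. With IL-13 at day 0, Pcx, which encodes pyruvate carboxylase, rose by 1.26 (SE 0.07), and Trib3, a stress-induced pseudokinase, by 0.42 (SE 0.07). Both were picked for their likeness to Pparg or Cebpb over libraries that include those of day 0. Their direction follows in part from that choice and is no separate result.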

How the data were processed

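Polyadenylated RNA of 16 libraries was sequenced. Per the file headers, the authors deposited for each library and gene a whole-number read count, an RPKM and a TPM value, in a day 0 and a day 6 table. Genome build mm10 comes from the submitters' processing notes; the aligner, the counter and its strand setting are not stated in the sources used here. Counts were tested with edgeR 4.0.16 (quasi-likelihood, robust, TMM, expression filter at a minimum count of 10 and total of 15), adjusted by Benjamini-Hochberg over all genes, and called at an adjusted p under 0.05. IL-13 comparisons used the 8 libraries of a day; day contrasts and the difference used all 16. CPM levels use TMM sizes of all 16. DESeq2 1.42.0 served as an alternative; tests were tried on simulated data. No 2 libraries agreed within sampling noise. Of 41325 gene identifiers, 41297 were in the GENCODE annotation; promoters are RefSeq's, GRCm38.p6. The members and lists were chosen with earlier results of these data known. Genes named were the members, their relatives, up to 4 genes per list with the smallest p, and 5 most alike in pattern to Pparg and Cebpb. Some genes that this rule names are not reported here.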

Additional observations from a re-analysis of the deposited data

Results flagged for a closer look

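The IL-13 effect differed between the days, by the test of the difference itself, for Pparg (-0.53) and for Cebpa (0.70). Among 40 gene and group combinations checked for a library far from the other 3 of its group (about 1 in 20 is found by chance), Ppara had 0.830 CPM in IL-13 day 0 replicate 4, and Ppard had 40.8 CPM in IL-13 day 6 replicate 1.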

How the results depend on the processing

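TMM was compared with total-count scaling and DESeq2's size factors, the filter with none, edgeR with DESeq2, and fits with all 16 libraries. The labels do not say that replicate numbers pair libraries. Deviations of same-numbered libraries correlated at -0.04 to 0.18 at day 0 (2 of 4 pairs over 0.1) and 0.01 to 0.21 at day 6 (3 of 4), and 3 of 4 libraries on each day correlated best with their own number, so not every pair did. With a replicate block, 4 members (Rxra, Nr1h3, Cebpa and Cebpb) and 2812 genes were called at day 6, and 1608 genes for the difference. Without the untreated libraries with most nuclear RNA, 3 members and 3485 genes were called at day 0, 2 genes at day 6 and 545 genes for the difference. With the nuclear RNA index as covariate these were 2 members and 928 genes at day 0, 0 genes at day 6 (edgeR, 854 at an unadjusted p under 0.05; DESeq2 without it, 1436) and 2045 for the difference. With all 16 libraries 1 member (Cebpa) and 1405 genes were called at day 6. Leaving out a library gave 3 to 5 members at day 0, 0 to 3 members and 60 to 2328 genes at day 6. The cause was not tested.

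Total-count scaling moved the median of all genes at day 0 to -0.13 and the split from 2912 higher and 2969 lower to 1682 and 4523; at day 6 it went from 273 and 536 to 53 and 1032. Of the other alternatives' values for single members, 318 kept direction and call and 24 changed sign, all of these listed here. At day 0 these were Rxra (-0.039) and Rxrb (-0.066) with the covariate and Nr1h3 without the nuclear-rich libraries (0.011). At day 6 they were Pparg (-0.032) and Rxrb (-0.061) with total-count scaling; without the nuclear-rich libraries Pparg (-0.029), Ppara (0.083), Rxrb (-0.051) and Cebpg (0.014); with the covariate Ppara (0.064), Rxra (-0.14), Rxrb (-0.26), Nr1h3 (-0.027), Cebpa (-0.032), Cebpb (-0.26) and Cebpg (0.19). Over the days Rxra was at 0.17 (untreated, adjusted p 0.0449) and 0.069 (IL-13) with the covariate. For the difference Ppara was at -0.34 and Rxra at 0.012 without the nuclear-rich libraries, and Rxra at 0.054 with total-count scaling, 0.053 with no filter, 0.033 with DESeq2's size factors and 0.033 with DESeq2. Leaving out a library gave ranges across 0 for Nr1h3 at day 0 (-0.16 to 0.039), Ppara (-0.16 to 0.027), Ppard (-0.076 to 0.063) and Rxrb (-0.051 to 0.090) at day 6, Rxra over the days (-0.12 to 0.033 and -0.11 to 0.035), and the difference of Rxra (-0.088 to 0.11) and Cebpd (-0.20 to 0.24).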
